A study of Mus musculus with 6 samples.

Results

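Voltage-gated sodium, calcium and hyperpolarization-activated (HCN) channel genes were followed in the hippocampus of mice after traumatic brain injury (TBI). All protein-coding genes named as sodium channel alpha (Scn1a to Scn11a) or beta subunits, as calcium channel alpha-1, alpha-2-delta, beta or gamma subunits, or as HCN channels were taken, which gave 44 of the 52550 genes listed. They fall into 10 sodium alpha, 4 sodium beta, 10 calcium alpha-1, 4 alpha-2-delta, 4 calcium beta, 8 gamma and 4 HCN genes. Of these, 39 had enough counts to be tested and 5 had not.

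Voltage-gated sodium channels open on depolarization and carry the rising phase of the action potential, and their pore is formed by an alpha subunit whose gating and placement are tuned by beta subunits. Voltage-gated calcium channels turn depolarization into calcium entry, which drives transmitter release at terminals and bursting and gene transcription at the soma and dendrites. HCN channels open on hyperpolarization, set the resting potential and input resistance, and are dense in the distal apical dendrites of CA1 pyramidal cells. Most gamma subunits of the calcium channel family are better known as transmembrane AMPA receptor regulatory proteins (TARPs).

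The study compared hippocampal tissue of male C57BL / 6 mice (C57B6/J in the study's methods) aged 8 to 10 weeks, 24 h after a controlled cortical impact or a sham operation, to find which transcripts differ after injury. Sham mice had the same anesthesia, incision and right parietal craniotomy, and only the TBI mice were struck. There were 3 sham libraries (Sham1 to Sham3) and 3 TBI libraries (TBI1 to TBI3), each from 1 mouse. The impact was unilateral. The study's introduction speaks of the whole hippocampus and its methods of exposing that of both sides, but whether both entered each library is not given in the sources used here.

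Each library held 31630936 to 41771872 estimated counts over all genes. Levels are given as CPM, the count of a gene scaled to library size with TMM factors, with the libraries of a group always listed in the order of their numbers, and levels of different genes are set against each other only as CPM per kb of annotated exon. Gene positions are those of GENCODE vM21 on GRCm38. Several libraries stood apart in genes of other brain regions. The summed level of 10 striatal neuron markers was 4507 CPM in TBI1 against 209.9 to 225 CPM in the sham libraries, 211 CPM in TBI2 and 296 CPM in TBI3. The summed level of 6 cerebellar neuron markers was 1826 CPM in TBI3 against 84.1 to 225 CPM in the sham libraries, 49.1 CPM in TBI1 and 146 CPM in TBI2, and Gabra6, the receptor subunit that marks cerebellar granule cells, was at 0 in Sham1, Sham2 and TBI1. The summed level of 6 thalamic neuron markers varied within both groups, at 150.2, 57.8 and 373 CPM in sham and 61.1, 364 and 492 CPM in TBI. Of 7 dentate granule cell markers, 5 had lower and 2 (Calb1 and Plk5) higher values in TBI. Prox1, a transcription factor of these cells, was at 70.0 to 96.0 CPM in the sham libraries and at 19.6, 56.5 and 56.0 CPM in TBI, and C1ql2, a secreted protein of their axons, at 56.7 to 86.0 CPM in the sham libraries and at 2.45, 63.4 and 39.6 CPM in TBI. Oligodendrocyte markers summed to 2862 CPM in Sham2 and to 8537 to 10490.1 CPM in the others. In bulk tissue such as this, fewer cells of a type and less RNA per cell cannot be told apart.

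**Figure D1:**
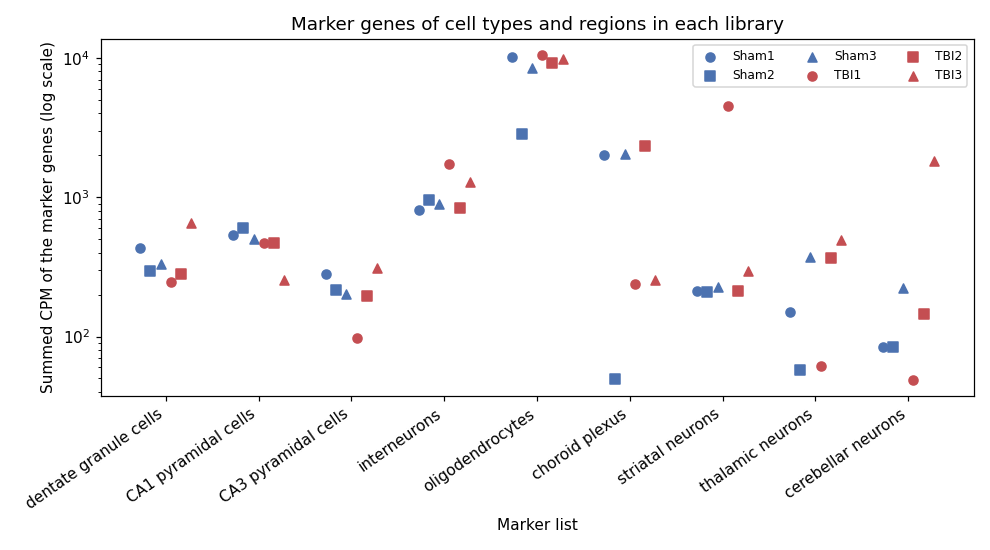
Summed CPM (log axis) of marker genes of 9 cell types or regions, 1 point per library, sham in blue and TBI in red. Striatal markers stood at 4507 CPM in TBI1 and cerebellar markers at 1826 CPM in TBI3, each far above the other 5 libraries.

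No channel gene passed the thresholds of a differentially expressed gene (p under 0.05, a false discovery rate under 0.1, and more than 1.5-fold up or down). The edgeR quasi-likelihood test called 0 of the 39 members, and the background was the same, with 0% of 18795 genes called. DESeq2 with the same thresholds also called 0 members, while it called 0.219% of 20988 genes. At an unadjusted p under 0.05, 4 members were higher in TBI (Scn4b, Cacna2d2, Cacnb4 and Cacng2) and 3 were lower (Cacng8 and Cacna1e among them), and DESeq2 gave the same 7 genes. That is 10.3% and 7.69% of the tested members, beside 2.16% of all tested genes that were higher and 2.13% that were lower at that p. Each of the 7 had an adjusted p of 0.982 by edgeR, and with Sham1 left out none of them kept a p under 0.05, beside 2.49% of all genes in that fit. Without Sham2 only Cacng8 was under it (3.39% of all genes), and without TBI3 2 members were, Scn4b among them (2.88% of all genes), while 0 members were with both TBI1 and TBI3 left out (1.7% of all genes). Without TBI1, 6 of the 7 lost it and Cacna1b, Cacna1d, Cacna2d1 and Cacnb1 came under it. That fit had 5 members under it, beside 4.33% of all genes.

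The groups did not overlap for 1 member with higher levels in TBI (Scn4b) and for 5 with lower levels (Cacng8, Cacna1e, Cacnb3 and Scn2a among them). Over all tested genes 4.77% were higher and 5.45% lower without overlap, so the share of members lower without overlap, 12.8%, lay above the background and the share higher without overlap, 2.56%, below it. The fold changes of the members were spread to both sides of 0, with 19 of 39 below 0 where 48.6% of all genes were. Their median log2 fold change was 0.11 against 0.0091 over all genes tested, and it was -0.11 without TBI1.

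**Figure D2:**
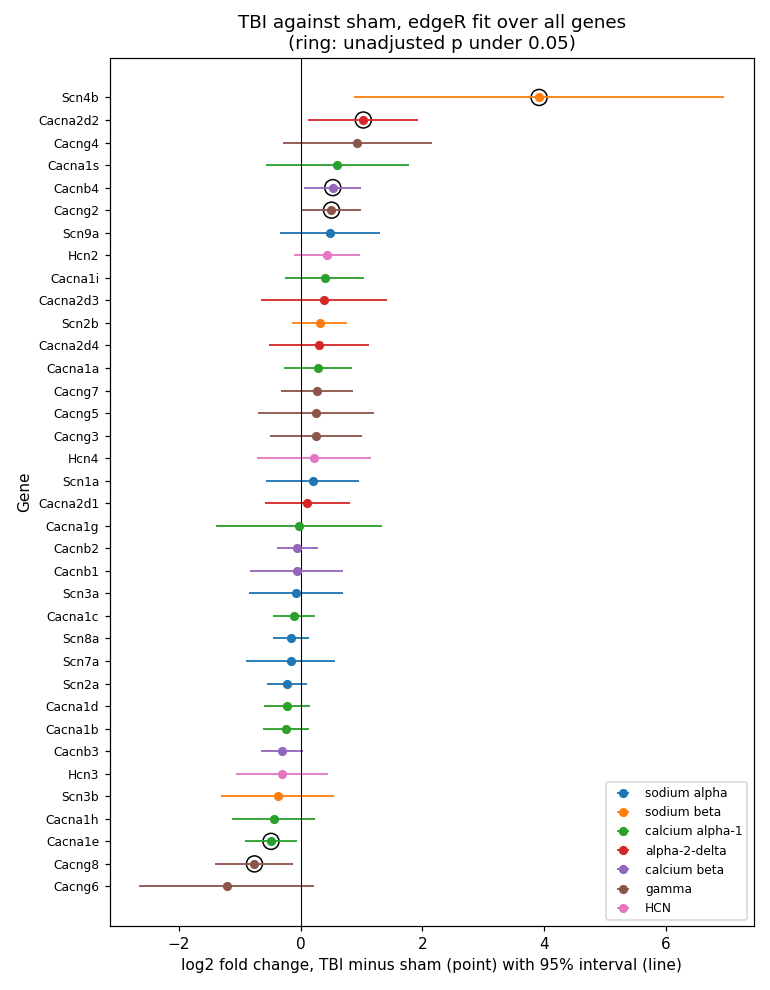
Log2 fold change of 36 of the 39 tested members, TBI minus sham, from the edgeR fit, with its 95% interval as a line and the family as color. Black rings mark 6 genes at an unadjusted p under 0.05, from Scn4b (3.92) to Cacng8 (-0.76), and the intervals of most other genes span 0 widely.

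Among the sodium channel alpha subunits, Scn2a, Scn8a and Scn1a made up most of the signal. Scn2a encodes Nav1.2, prominent in excitatory neurons, Scn8a encodes Nav1.6, which dominates the mature axon initial segment, and Scn1a encodes Nav1.1, the main sodium channel of fast-spiking interneurons. Per kb of exon, Scn2a stood at 16.1, 19.9 and 16.2 CPM per kb in sham and 15.8, 15.8 and 13.3 CPM per kb in TBI. The level of Scn8a was 18.6, 15.1 and 17.1 CPM per kb in sham and 14.4, 16.6 and 14.5 CPM per kb in TBI. The order of these channels was not fixed: Scn2a led in Sham2 and TBI1, Scn8a in Sham1, Sham3 and TBI2, and Scn1a in TBI3, so Scn2a and Scn8a, next to each other in order of level, did not differ beyond their spread.

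Scn2a (ENSMUSG00000075318.12, chr2:65620771-65767447, + strand) was at 205, 254 and 206 CPM in sham and 201, 202 and 169.5 CPM in TBI. The TBI libraries lay below the sham libraries without overlap, but the gap between the lowest sham and the highest TBI library was small, and the log2 fold change was -0.22 ± 0.14 (SE, n = 3 per group; edgeR adjusted p = 0.982). Without Sham2, its highest library, it was -0.11. Its 95% interval ran from -0.54 to 0.11 and so lay within a 1.5-fold change in either direction, as did those of Scn8a, Cacna1c and Cacnb2. Scn1a was at 116, 72.7 and 153 CPM in sham and 90.4, 138 and 164 CPM in TBI, with its lowest level in Sham2 and its highest in TBI3. The 6 libraries had the same order by Scn1a as by the summed thalamic markers, whose part in the Scn1a level was not tested. The ratio of Scn1a to Scn2a per kb accordingly ran from 0.328 in Sham2 to 1.10 in TBI3.

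These channels are close relatives, and part of their transcripts cannot be told apart by short reads. Of all 50-base windows in the transcripts of each gene, 5.65% of Scn2a, 4.03% of Scn1a, 6.49% of Scn3a and 4.04% of Scn9a were also present in another channel gene of the set.

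The other alpha subunits were lower. Scn3a (Nav1.3), a channel of the embryonic brain, was at 40.8, 37.6 and 40.5 CPM in sham and 56.4, 34.3 and 21.9 CPM in TBI, highest in TBI1 and lowest in TBI3. Scn7a and Scn9a stayed between 1.54 and 3.39 CPM in every library. Scn4a, Scn10a and Scn11a, the channels of skeletal muscle and of nociceptive neurons, did not pass the filter, with at most 0.208 CPM in any library.

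Scn4b (ENSMUSG00000046480.6, chr9:45138395-45154152, + strand) had the widest difference of all members. It encodes a beta subunit known from striatal projection neurons and cerebellar Purkinje cells, which supplies the blocking particle of resurgent sodium current. It was at 33.8, 15.9 and 61.7 CPM in sham and 1486, 68.8 and 127 CPM in TBI. All TBI libraries lay above all sham libraries, and TBI1 stood far above TBI3, the next highest. The log2 fold change was 3.92 ± 1.27 (SE, n = 3 per group; edgeR adjusted p = 0.982) and was 1.40 without TBI1 and 0.89 without both TBI1 and TBI3. Where TBI1 had its excess of striatal markers, Scn4b was highest, and where TBI3 had its excess of cerebellar markers, it was second, although their part in its level was not tested. TBI3 also had the highest thalamic marker sum, at 492 CPM, and a striatal sum of 296 CPM, above the sham range. In TBI2, whose striatal sum of 211 CPM lay within the sham range, Scn4b was 68.8 CPM beside 61.7 CPM in Sham3, and in both of these libraries the thalamic markers were high (364 and 373 CPM). The part of the thalamic markers was not tested either.

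Scn2b, which is linked to the alpha subunit by a disulfide bond, was at 299, 218 and 334 CPM in sham and 407, 307 and 344 CPM in TBI, and Scn3b at 55.0, 30.7 and 71.9 CPM in sham and 44.2, 53.1 and 24.2 CPM in TBI. The groups overlapped for both, and the log2 fold changes were 0.31 ± 0.19 and -0.37 ± 0.39 (edgeR adjusted p = 0.982 each). With 1 library left out they ran from 0.16 (without Sham2) to 0.44 (without Sham3) for Scn2b and from -0.65 (without Sham2) to -0.088 (without Sham3) for Scn3b.

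Scn2b and Scn4b are neighbors on chromosome 9, on the same strand and 8324 bases apart, yet their ratio differed widely among the libraries. The level of Scn4b per kb was 0.068 to 0.173 times that of Scn2b in the sham libraries and 3.41, 0.209 and 0.345 times in TBI. Their promoters are shown because the genes are so close and so unlike in these values. The GENCODE genes start within these windows, at 45117782 for Scn2b and at 45138395 for Scn4b, so most of the Scn4b window lies inside the annotated gene. The sequences are from RefSeq on GRCm38.p6, run from 250 bases before to 50 bases after the transcript start used there, and have each CpG in capitals (Scn2b at chr9:45117626-45117925 and Scn4b at chr9:45138374-45138673, both + strand).
Scn2b: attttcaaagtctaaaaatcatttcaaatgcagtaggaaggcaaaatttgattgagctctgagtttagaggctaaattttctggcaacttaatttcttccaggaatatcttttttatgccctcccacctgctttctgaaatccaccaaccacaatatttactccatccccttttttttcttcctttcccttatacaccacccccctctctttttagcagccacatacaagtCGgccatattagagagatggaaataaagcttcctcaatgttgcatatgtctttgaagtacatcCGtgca
Scn4b: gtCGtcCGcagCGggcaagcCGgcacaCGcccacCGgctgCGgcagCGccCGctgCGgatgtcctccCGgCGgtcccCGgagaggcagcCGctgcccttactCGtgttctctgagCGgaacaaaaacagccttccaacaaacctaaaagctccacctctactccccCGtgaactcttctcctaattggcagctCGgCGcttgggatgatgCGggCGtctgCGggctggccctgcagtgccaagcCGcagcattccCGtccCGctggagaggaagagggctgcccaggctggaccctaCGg
The Scn4b promoter holds 26 CpG and the Scn2b promoter 2. Of 32851 promoters of the same length, 16.9% hold at least 26 CpG and 23.3% at most 2, and the medians are 7 over all of them and 11 over the 43 promoters of 32 members. These counts are a description of the letters and say nothing of which factors bind there.

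**Figure D3:**
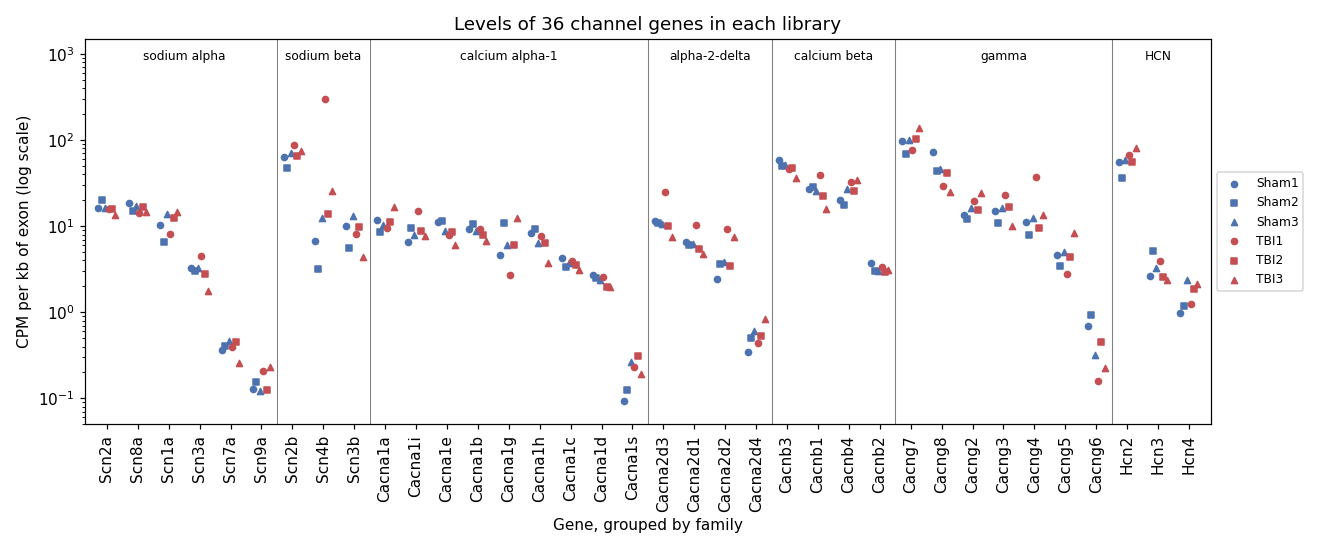
Level of 36 of the 39 tested members per kb of exon (log axis) in each library, grouped by family and ordered by mean level within it. Scn4b stands at 298 CPM per kb in TBI1 and at 3.19 to 25.5 CPM per kb in the other libraries.

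In the mean over the 6 libraries, the calcium channel alpha-1 subunits were led per kb by Cacna1a, Cacna1i, Cacna1e and Cacna1b, with no fixed order among libraries. In Sham2 and TBI3, Cacna1g (10.9 and 12.5 CPM per kb) stood above all but the top gene. Cacna1a encodes the P/Q-type channel and Cacna1b the N-type channel of presynaptic terminals, Cacna1e the R-type channel, and Cacna1g, Cacna1h and Cacna1i the low-threshold T-type channels. Cacna1e (ENSMUSG00000004110.15, chr1:154390731-154884501, - strand) was at 279, 293 and 223 CPM in sham and 197, 219 and 152 CPM in TBI. Its TBI levels lay below the sham levels in all libraries, by a small margin between TBI2 and Sham3, and the log2 fold change was -0.48 ± 0.18 (SE, n = 3 per group; edgeR adjusted p = 0.982). Without TBI3, which was the lowest, it was -0.35.

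Cacna1a was at 134, 98.5 and 117 CPM in sham and 109, 127 and 191 CPM in TBI, with overlapping groups and its highest level in TBI3. Its log2 fold change of 0.29 ± 0.23 (edgeR adjusted p = 0.982) was 0.014 without TBI3, the library with the cerebellar markers. Cacna1a is known for its high level in Purkinje and granule cells, and the part of these cells in the value was not tested. Cacna1b was at 91.5, 105 and 86.6 CPM in sham and 93.3, 79.3 and 66.5 CPM in TBI.

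The T-type genes were high and low in different libraries. Cacna1g was at 46.7, 111 and 61.2 CPM in sham and 27.5, 61.1 and 127 CPM in TBI, with its lowest level in TBI1, its highest in TBI3 and a log2 fold change of -0.02 that ran from -0.72 without TBI3 to 0.41 without Sham2. Cacna1i was highest in TBI1, at 147 CPM against 65.1 to 93.4 CPM in all others, and Cacna1h was lowest in TBI3, at 36.4 CPM against 61.7 to 91.8 CPM. Cacna1i thus led the family per kb in TBI1, with 25.3% of the summed level, and Cacna1a led it in TBI3 with 28.5%.

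Of the L-type genes, Cacna1c (Cav1.2) was at 89.9, 71.9 and 78.2 CPM in sham and 83.3, 75.2 and 64.8 CPM in TBI and Cacna1d (Cav1.3) at 33.8, 31.5 and 30.2 CPM in sham and 32.6, 24.6 and 24.7 CPM in TBI. Their log2 fold changes were -0.10 ± 0.14 and -0.22 ± 0.16. For Cacna1d, TBI2 and TBI3 lay below all sham libraries and TBI1 among them, and the log2 fold change was -0.37 without TBI1. Cacna1s, the muscle channel, was at 0.617 to 2.05 CPM, and 1309 of its 6550 exon bases overlap a gene on the opposite strand, so its few counts may belong to either. Cacna1f, the retinal channel, did not pass the filter.

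The alpha-2-delta subunits, which bring calcium channels to the surface and bind gabapentin in the case of Cacna2d1 and Cacna2d2, had log2 fold changes above 0 for all 4 genes, but this sign held only for Cacna2d2 whichever library was left out. Cacna2d2 (ENSMUSG00000010066.15, chr9:107399612-107529343, + strand) was at 19.5, 29.3 and 30.1 CPM in sham and 74.2, 27.1 and 59.9 CPM in TBI. TBI1 and TBI3 stood above all sham libraries, and TBI2 lay within their range. The log2 fold change was 1.03 ± 0.38 (SE, n = 3 per group; edgeR adjusted p = 0.982), and with both TBI1 and TBI3 left out it was 0.045. The 2 libraries in which it was high are those with the striatal and the cerebellar marker excess, whose part was not tested.

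Cacna2d3, the most abundant of the family per kb in 5 libraries, was at 99.3, 94.3 and 92.2 CPM in sham and 221, 87.8 and 65.4 CPM in TBI. Only TBI1 was above the sham range, and TBI2 and TBI3 were below it. The log2 fold change of 0.39 ± 0.43 accordingly turned to -0.31 without TBI1. Cacna2d1 had the same pattern at 81.8, 75.9 and 76.8 CPM in sham and 127, 67.4 and 58.5 CPM in TBI. Cacna2d4 was low, at 3.28 to 7.87 CPM. In TBI3 the family was led by Cacna2d2, with 36.6% of its summed level per kb.

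The beta subunits of calcium channels, cytoplasmic proteins that protect the alpha-1 subunit from degradation, were led by Cacnb3 in every library. Cacnb3 (ENSMUSG00000003352.13, chr15:98630840-98644529, + strand) was at 238, 202 and 207 CPM in sham and 186, 193 and 146 CPM in TBI. Each TBI library was below each sham library, with a log2 fold change of -0.30 ± 0.15 (SE, n = 3 per group; edgeR adjusted p = 0.982) that was -0.19 without TBI3. Cacnb4 (ENSMUSG00000017412.15, chr2:52428320-52676831, - strand), which is mutated in the lethargic mouse and is prominent in the cerebellum, was at 179, 158 and 240.3 CPM in sham and 295, 229 and 311 CPM in TBI. Its groups overlapped only in that TBI2 lay below Sham3, and the log2 fold change was 0.53 ± 0.20 (edgeR adjusted p = 0.982) and was 0.24 without both TBI1 and TBI3. Those were its 2 highest libraries and the ones with the excess of striatal and cerebellar markers, whose part in its level was not tested. Of its 8963 exon bases 1433 overlap A430018G15Rik on the opposite strand, and the strand setting of the counting is not given in the sources used here.

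The ratio of Cacnb4 to Cacnb3 per kb was 0.337, 0.352 and 0.519 among the sham libraries and 0.708, 0.531 and 0.952 among the TBI libraries. Since Cacnb4 had higher and Cacnb3 lower values in TBI, this ratio is a description only. Cacnb1 was at 122, 131 and 117 CPM in sham and 180.1, 102 and 71.7 CPM in TBI, highest in TBI1 and lowest in TBI3. Cacnb2 hardly moved, at 49.1, 39.6 and 39.9 CPM in sham and 44.7, 38.4 and 40.9 CPM in TBI, with a log2 fold change of -0.05 ± 0.14.

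**Figure D4:**
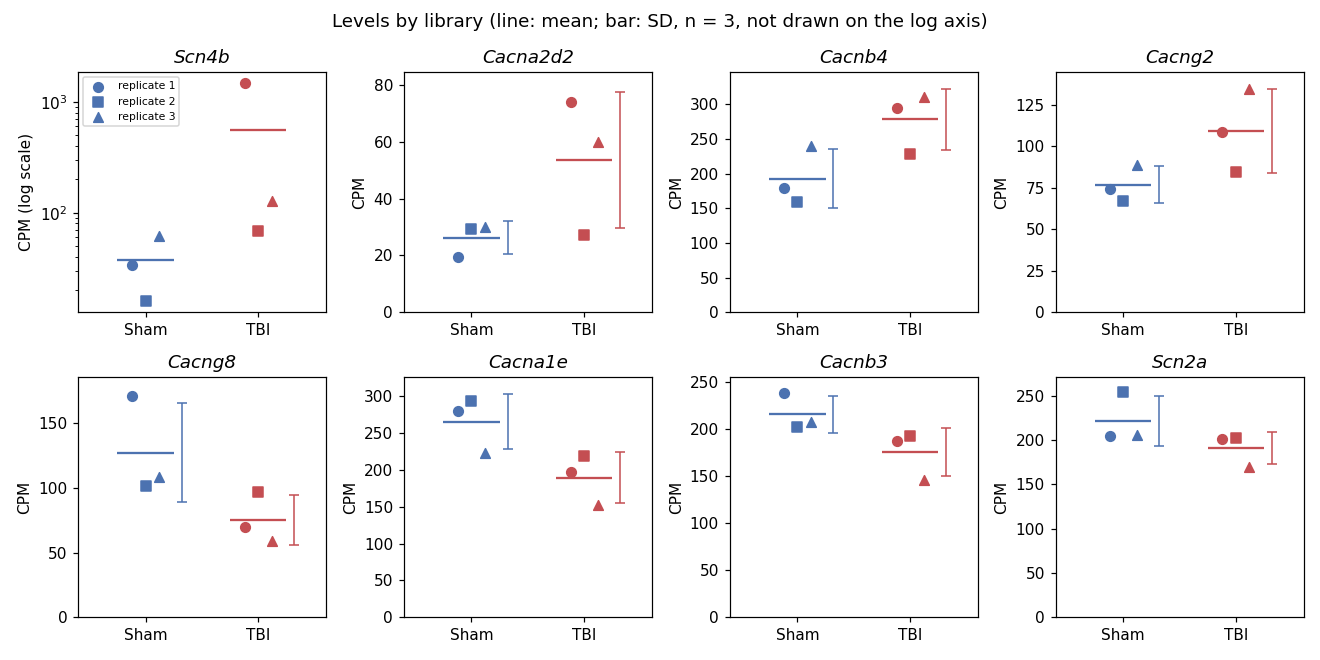
CPM in each library of 6 members at an unadjusted p under 0.05 and of Cacnb3 and Scn2a, sham in blue and TBI in red, with the mean as a line and the SD as a bar (n = 3; the Scn4b panel has a log axis and no bar). Cacng8, Cacna1e, Cacnb3 and Scn2a had all TBI libraries below all sham libraries, and Scn4b had them above.

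Among the gamma subunits, the TARPs Cacng7 and Cacng8 had the highest levels per kb in most libraries. TARPs carry AMPA receptors to the synapse and slow their closing, and Cacng8 (TARP gamma-8) is the type enriched in the hippocampus. Cacng8 (ENSMUSG00000053395.15, chr7:3390683-3415648, + strand) was at 171, 101 and 109 CPM in sham and 69.4, 97.0 and 59.1 CPM in TBI. All TBI libraries were below all sham libraries, with TBI2 close to Sham2, and the log2 fold change was -0.76 ± 0.27 (SE, n = 3 per group; edgeR adjusted p = 0.982). Without Sham1, its highest library, it was -0.48. The summed level of 4 CA1 pyramidal cell markers was also lower, at 504 to 597 CPM in the sham libraries and 468, 467 and 255 CPM in TBI. Its members differed: 3 had lower values in TBI, among them Fibcd1 at 99.9 to 142 CPM in the sham libraries and at 13.1, 76.9 and 49.5 CPM in TBI, and Wfs1 had a higher mean, with 276 CPM in TBI1. The part of these markers in the Cacng8 level was not tested.

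Cacng7 lies 22461 bases from Cacng8 on chromosome 7, on the same strand, and did not follow it. Its level was 240.3, 169 and 243 CPM in sham and 189.7, 255 and 340.5 CPM in TBI, with a log2 fold change of 0.27 ± 0.25 that was 0.022 without TBI3. The ratio of Cacng8 to Cacng7 per kb was 0.740, 0.624 and 0.465 in sham and 0.381, 0.397 and 0.181 in TBI, a description only, since Cacng8 was named for its lower levels.

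Cacng2, or stargazin (ENSMUSG00000019146.2, chr15:77991748-78120028, - strand), the main TARP of the cerebellum, was at 74.1, 67.1 and 88.9 CPM in sham and 109, 84.3 and 134 CPM in TBI. TBI1 and TBI3 exceeded all sham libraries and TBI2 did not, with a log2 fold change of 0.51 ± 0.20 (edgeR adjusted p = 0.982) that was 0.33 without TBI3 and 0.14 without both TBI1 and TBI3. Of its exon bases 5.86% overlap an antisense gene. Cacng3 was at 41.5, 30.1 and 45.2 CPM in sham and 64.6, 46.0 and 28.1 CPM in TBI. Cacng4 was at 39.7, 28.3 and 45.0 CPM in sham and 134, 33.6 and 48.1 CPM in TBI, so that TBI1 alone lay far above the rest, and its log2 fold change of 0.93 ± 0.51 was 0.12 without TBI1. Cacng5 was highest in TBI3, at 32.2 CPM against 10.7 to 19.1 CPM in the other libraries. Cacng6, a close relative of the muscle subunit Cacng1, was at 1.36, 1.84 and 0.625 CPM in sham and 0.318, 0.885 and 0.450 CPM in TBI, so that its log2 fold change of -1.21 ± 0.60 rests on 13 to 74 counts per library. Cacng1 did not pass the filter and had at most 0.612 CPM.

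Of the HCN channels, Hcn2 had the highest level and did not pass the test. Hcn2, a channel opened further by cAMP and widespread in the thalamus, was at 176, 115 and 188 CPM in sham and 214, 177 and 258 CPM in TBI, with a log2 fold change of 0.44 ± 0.23 (edgeR adjusted p = 0.982). It was 0.25 without Sham2, 0.29 without TBI3 and 0.14 without both TBI1 and TBI3. Its highest level was in TBI3, where 6 thalamic neuron markers summed to 492 CPM, and its lowest in Sham2, where they summed to 57.8 CPM. In TBI1 the Hcn2 level was 214 CPM and the sum 61.1 CPM. The part of these markers in the Hcn2 level was not tested. Per kb of exon Hcn2 was the most abundant HCN gene in every library, with 76.0% to 90.9% of the summed level. Hcn3 was at 10.9, 21.2 and 13.4 CPM in sham and 16.2, 10.8 and 9.89 CPM in TBI, but 17.1% of its exon bases overlap Pklr on the opposite strand. Hcn4, the pacemaker channel of the heart and thalamus, was at 5.98, 7.18 and 14.5 CPM in sham and 7.62, 11.5 and 13.0 CPM in TBI.

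The TBI libraries differed from each other in how many of their channel genes lay away from the sham libraries. Of 39 members, 14 lay within the range of the sham libraries in TBI1, 19 in TBI2 and 4 in TBI3, which is 35.9%, 48.7% and 10.3% beside 46.5%, 56.4% and 44.7% of all genes. The median absolute difference from the sham mean was 0.46, 0.18 and 0.59 on the log2 scale for the members in TBI, and 0.25, 0.19 and 0.26 for all genes. TBI3 was the lowest of the 6 libraries for 16 members and the highest for 11 (41% and 28.2%, beside 18% and 19.8% of all genes), and TBI1 was the highest for 11 (28.2%, beside 19.7% of all genes). Among the sham libraries, Sham2 was the highest for 7 members and the lowest for 9 (17.9% and 23.1%, beside 23.7% and 23% of all genes). The sign of the fold change stayed the same for 25 of the 39 members whichever library was left out, and it changed for 14.

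**Figure D5:**
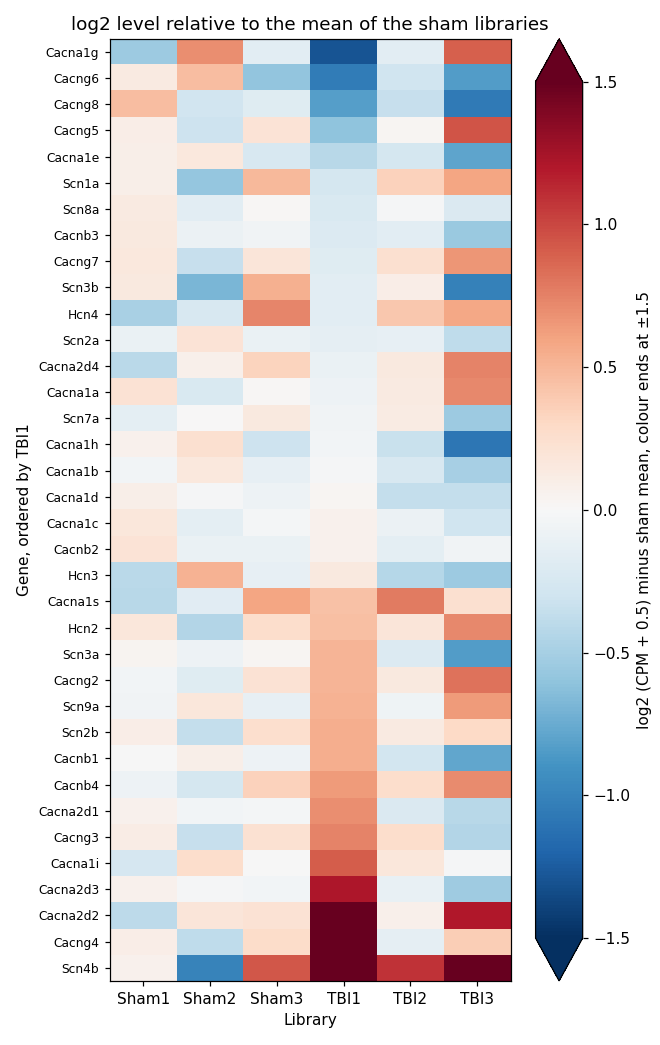
Log2 level of 36 of the 39 tested members (CPM + 0.5) in each library minus its sham mean, ordered by TBI1, with red above and blue below. TBI2 is pale for most genes, and TBI1 and TBI3 carry the strong colors, often of opposite sign, as for Cacna1g, Scn3a and Cacna2d3.

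Genes whose products work with these channels were read in the same fit. Of 11 sodium channel partners, Nrcam, an adhesion molecule of the axon initial segment and node, was at 255, 291 and 265 CPM in sham and 208, 241 and 214 CPM in TBI. Its TBI levels were below its sham levels without overlap (log2 fold change -0.29 ± 0.11; edgeR adjusted p = 0.982), and the other 10 had an unadjusted p above 0.05. The median log2 fold change of this list was -0.012. Cntn1, a contactin that binds sodium channel complexes, had the highest mean level per kb of it over the 6 libraries, but Fgf13, an intracellular partner of sodium channels, was above it in Sham1 and Sham3.

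The AMPA receptor complex had 7 of 10 genes with lower and 3 with higher values in TBI, and the median was -0.45 on the log2 scale. Gria1, the GluA1 subunit, was at 962, 648 and 693 CPM in sham and 466, 586 and 596 CPM in TBI. Cnih3, a cornichon protein that accompanies AMPA receptors, was at 45.6, 53.6 and 46.6 CPM in sham and 28.5, 43.9 and 27.3 CPM in TBI. Both were lower in TBI without overlap, with log2 fold changes of -0.48 ± 0.19 and -0.55 ± 0.21, while Shisa9, another auxiliary subunit, was higher without overlap (0.56 ± 0.19). Shisa6, named here after its values were seen, was also lower without overlap, at a mean of 116 ± 16.7 CPM in sham (SD, n = 3) and at 14.0, 88.7 and 93.0 CPM in TBI, with a log2 fold change of -0.83 ± 0.62 that was -0.36 without TBI1. Thus 3 of the 10 genes were lower and 1 higher without overlap, beside the 5.45% and 4.77% of all genes given above. All 4 had an edgeR adjusted p of 0.982. Cnih2, the most abundant of the list per kb, was at 764, 423 and 556 CPM in sham and 362, 484 and 317 CPM in TBI.

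In the remaining lists no gene reached an unadjusted p under 0.05. These were 20 tested calcium channel regulators (6 higher, 14 lower, median log2 fold change -0.17), 8 HCN channel partners (3 higher, 5 lower, -0.03), 4 genes of the sodium leak channel complex (2 higher, 2 lower, 0.056) and 3 of the REST repressor complex (1 higher, 2 lower, -0.16). Their most abundant genes per kb in the mean over the 6 libraries were Calm2 (calmodulin), Vapa, Unc80 and Sin3a. Of the 20 regulators 1, Rims2, was higher without overlap (log2 fold change 0.37 ± 0.17), beside 4.77% of all genes. Of the 3 REST complex genes 1, Rcor1, was lower without overlap (-0.16 ± 0.13), beside 5.45% of all genes. Among 10 general neuron markers, 7 had lower and 3 higher values in TBI. Of the 10, 2 were lower without overlap, beside 5.45% of all genes. These were Syn1 and Map2 (log2 fold changes -0.38 ± 0.12 and -0.61 ± 0.21, edgeR adjusted p = 0.982 each), whose part in the lower channel levels was not tested.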

How the data were processed

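An RNA library was made from the hippocampus of each of 3 sham and 3 TBI mice. The deposited values are expected counts (each an estimated count per gene) that the authors obtained by FastQC checks, HISAT2 alignment on GRCm38 and StringTie quantification; they are whole numbers, not normalized, and were used as they stand. The sources used here do not give the versions of FastQC, HISAT2 and StringTie, the annotation release, the strand setting or how StringTie coverage became counts. The value 4 occurs 5109 times and the value 3 2325 times, so counts are not single reads and no counting error was computed.

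Of 52550 identifiers, 52403 matched GENCODE vM21. After the filterByExpr filter by group and TMM scaling (factors 0.970 to 1.025), counts were tested with edgeR 4.0.16 (quasi-likelihood test, common BCV 0.374) in R 4.3.3 over 18795 genes, with Benjamini-Hochberg adjustment. The 39 tested members also had at least 10 counts in every library. Thresholds followed the study, which used DESeq2, and DESeq2 1.42.0 was an alternative. Alternatives also covered scaling, filters, thresholds, each library left out, the replicate block, and both TBI1 and TBI3 left out, the last chosen after seeing the data. The test was checked on simulated counts.

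The members and lists were chosen with earlier results of these data known. Members named with values were those at an unadjusted p under 0.05, those whose groups did not overlap, the most abundant of each family per kb and the 3 with the largest fold changes, and others were named to account for every member after their values were seen. Partner genes named were those at that p, at most 3 per list, and the most abundant of each list. Promoters are from RefSeq (GRCm38.p6), with 12 of 44 members unmatched. Values of 3 members and a stretch of sequence are not reported here.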

Additional observations from a re-analysis of the deposited data

How the results depend on the processing

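No channel gene was called by edgeR under any scaling, filter, threshold or left-out library, nor by DESeq2. The number at an unadjusted p under 0.05, 7 in the fit with all libraries, ran from 0 to 9 when 1 library was left out: 0 without Sham1, 1 without Sham2, 2 without TBI3 and 9 without TBI2, beside 2.49%, 3.39%, 2.88% and 5.82% of all genes in the same fits and 4.29% with all libraries. It was 0 with both TBI1 and TBI3 left out (1.7% of all genes), when TBI2 alone is assumed to vary like the sham group. The median log2 fold change of the members, 0.11, ran from -0.11 (without TBI1) to 0.15 (without TBI2), was 0.014 without TBI3 and was -0.095 with both TBI1 and TBI3 left out. For Cacna2d3 the log2 fold change of 0.39 ran from -0.31 without TBI1 to 0.69 without TBI3 and was -0.12 with both left out. These fits hold fewer samples, and no other cause was tested. Deviations of same-numbered libraries correlated at -0.126, -0.0681 and 0.200, and those of differently numbered libraries at -0.217 to 0.238. With so few libraries these values cannot decide whether the replicate numbers pair them. With the replicate number as a block 8 members and 3.85% of all genes were at an unadjusted p under 0.05 and the median was -0.047. With DESeq2, other scalings and other filters the same 7 genes stood at an unadjusted p under 0.05, and 5 or 6 members had groups without overlap under the other scalings and filters. With 3 mice per group, most intervals span a 1.5-fold change, and only 5 of 39 lay within it in both directions.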
